A study of Homo sapiens with 6 samples.

Results

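Messenger RNAs are removed from the cytoplasm and nucleus by a small set of enzymes and their partners, and the 43 genes described here encode that machinery. They are the subunits of the CCR4-NOT deadenylase (11 genes), the PAN2-PAN3 deadenylase (2), the deadenylase PARN, the decapping enzymes and activators (8), the exonuclease XRN1, the LSM1-7 ring (7), the poly(A)-binding proteins PABPC1 and PABPC4, and the RNA exosome (11). The genes were listed by name and complex, with no threshold on their values, at a time when earlier results of these data were known. All 43 were found by symbol among the 45372 genes listed, were above 0 in every library, and passed the filter on low values, which kept 13680 genes.

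The cells were HUVECs, wild-type endothelial cells of the human umbilical vein grown as a primary culture. In 3 libraries the cells had received 50 nM of a miR-409-3p mimic, a synthetic double-stranded RNA that supplies the microRNA, and in 3 others the same dose of a non-specific control RNA. Both groups were transfected with a Lipofectamine reagent and are labelled with a time of 48 h. The cells were bought commercially and passaged before use, and the sample titles call the cells of both groups non treated, without saying which treatment is meant. The replicates are called biological in the labels, which do not say whether they came from separate donors or cultures, so the p-values measure only the spread between these samples. The series title places the work in a study of miR-409-3p, BTG2, angiogenesis and wound healing.

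Decay of most mRNAs begins with shortening of the poly(A) tail, by PAN2-PAN3 and then by CCR4-NOT. The shortened mRNA is bound by the LSM1-7 ring and PATL1, its cap is removed by DCP2, and XRN1 degrades the body from the 5′ end, while the exosome can degrade it from the 3′ end. MicroRNAs act through this machinery, since the GW182 proteins of the silencing complex recruit CCR4-NOT and PAN2-PAN3. BTG/TOB and ZFP36 proteins bring CCR4-NOT to their own targets.

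The sequence of the supplied microRNA is shown first, because a seed match in a 3′ UTR is the feature through which a microRNA is best known to act. The mature miR-409-3p (RefSeq, GRCh38.p14, chr14:101065346-101065367, plus strand) is printed with its seed, bases 2 to 8, in capitals.
miR-409-3p: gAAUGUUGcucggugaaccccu

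Sites complementary to that seed were searched on the sense strand of the longest protein-coding 3′ UTR of each gene in GENCODE 29, as the letters CAACATTA (8mer), CAACATT (7mer-m8), AACATTA (7mer-A1) or AACATT (6mer), each shorter class holding the genes with no longer match. The 3 members with an 8mer or 7mer-m8 match are shown, and those with a 7mer-A1 as their longest match are not. The first of the 5 6mers of DCP2 follows, a match of the shortest class. It was picked for the DCP2 values described further on, and not for the match itself. The matches lie in 3′ UTRs at chr7:32486260-32486267 for LSM5, chr11:118750782-118750788 for DDX6 and chr3:142309955-142309961 and chr3:142307007-142307013 for XRN1, all on the minus strand, and at chr5:113016699-113016704 on the plus strand for DCP2 (GRCh38). Capitals mark the match.
LSM5: gtcaaatatttCAACATTAatatgtacata
DDX6: cattgataattCAACATTtattttgagaag
XRN1, upstream match: ttatcagttccCAACATTgtttctttatct
XRN1, downstream match: attgaagtgttCAACATTttgttcatttaa
DCP2: tgtgcattaaaAACATTtcactacctattc

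Of the 43 members, 8 held a 7mer or 8mer match (18.6%), against 22.8% of 11855 tested protein-coding genes searched in the same way. LSM5 held the 8mer. DDX6 and XRN1 held a 7mer-m8, and CNOT2, CNOT7, PAN3, PABPC1 and DIS3 a 7mer-A1 as their longest match. A further 13 members held the 6mer only, and 22 had no match, EXOSC3 among them, whose searched 3′ UTR is 965 nt long. The median 3′ UTR length was 1354 nt for members and 1383 nt for all genes searched. A match is a description of these letters and not evidence of a working site.

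The deposited values are TPM, reads per length of gene, brought to an equal sum for every library, so levels of different genes can be set side by side. The depth estimated from the steps between low values was 29.8 to 35.8 M assigned reads per library. The endothelial markers used to check the label were 10 genes, among them PECAM1, CDH5 and VWF. They summed to 5258 to 5508 TPM in control and 5641 to 5660 TPM in mimic libraries, without overlap. Of the 10, 0 passed the test, and 1, CLEC14A, had groups that did not overlap, with mimic above. Leukocyte markers summed to at most 0.826 TPM in any library, with PTPRC and CD3E listed at 0 throughout. Smooth muscle markers summed to 9.59 to 13.3 TPM in control and 10.4 to 12.0 TPM in mimic libraries, fibroblast markers to 9.27 to 11.8 and 10.4 to 11.3 TPM, and epithelial markers to 31.8 to 32.9 and 27.1 to 32.8 TPM, with KRT5 listed at 0 throughout. Whether these sums had a part in any difference below was not tested. In RNA from a whole culture, fewer cells of a type and less RNA per cell cannot be told apart.

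The decay machinery was expressed in full, at levels that differed by complex. PABPC1, which coats poly(A) tails, stood far above the rest with a mean of 1526 ± 45.5 TPM for control and 1520 ± 42.3 TPM for mimic (SD, n = 3; all pairs of means that follow give control first and are of the same kind). PAN2, the catalytic subunit of PAN2-PAN3, was the lowest member at 7.88 ± 1.13 and 7.26 ± 0.471 TPM. The median member had 36.6 TPM over the 6 libraries, against 19.5 TPM for all tested genes. Genes of the LSM ring were the most abundant after the poly(A)-binding proteins, with a median of 91.3 TPM, followed by CCR4-NOT with 46.1, the exosome with 31.9 and the decapping genes with 29.5 TPM.

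**Figure D1:**
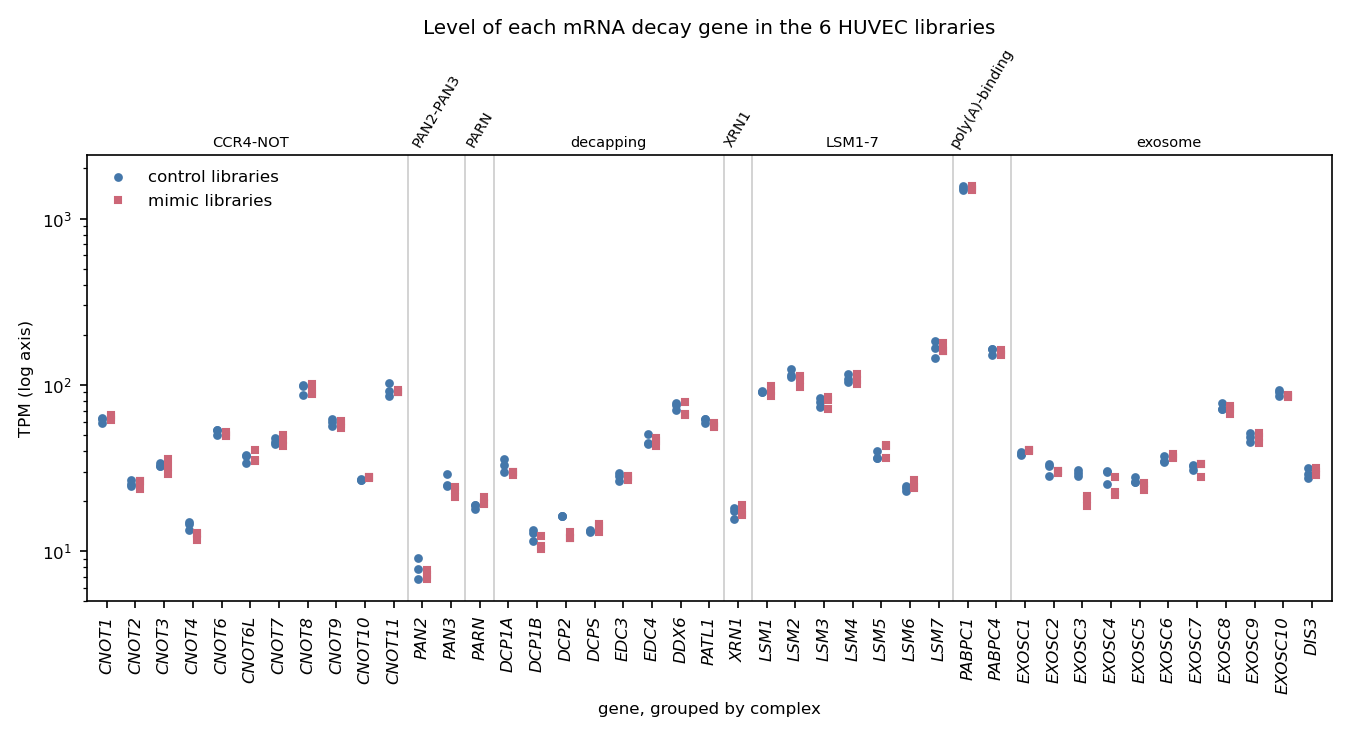
TPM of each of the 43 mRNA decay genes on a log axis, with 3 control libraries (circles) and 3 mimic libraries (squares) per gene. PABPC1, at about 1523 TPM, is the highest and PAN2, at about 7.57 TPM, the lowest, and EXOSC3 and DCP2 show mimic libraries below control libraries.

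The comparison of mimic with control asks which of these transcripts differ when the microRNA is supplied. EXOSC3, which encodes a cap subunit of the exosome, fell to 0.685 of its control level, and DCP2, the mRNA decapping enzyme, had the next lowest fold change without passing the test. By limma on log2(TPM + 1) with Benjamini-Hochberg adjustment over all tested genes and a threshold of 0.05, 1 of 43 members fell, 0 rose and 42 did not pass. Over all genes 0.431% passed, of which 0.3% fell and 0.132% rose. A single member is 2.33% of 43, so this count is too small to be read against the background. At an unadjusted p under 0.05, 4 members were lower (CNOT4, DCP2, EXOSC3 and EXOSC4) and 0 were higher. This is 9.3% of members in either direction, against a background of 10.7%, of which 7.64% were lower and 3.05% higher. The median log2 fold change was -0.02 for members and -0.02 for all tested genes, and 28 of 43 members lay below 0 (65.1%) against 56.6%. The median size of the change regardless of sign was 0.05 for members and 0.07 for all tested genes.

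**Figure D2:**
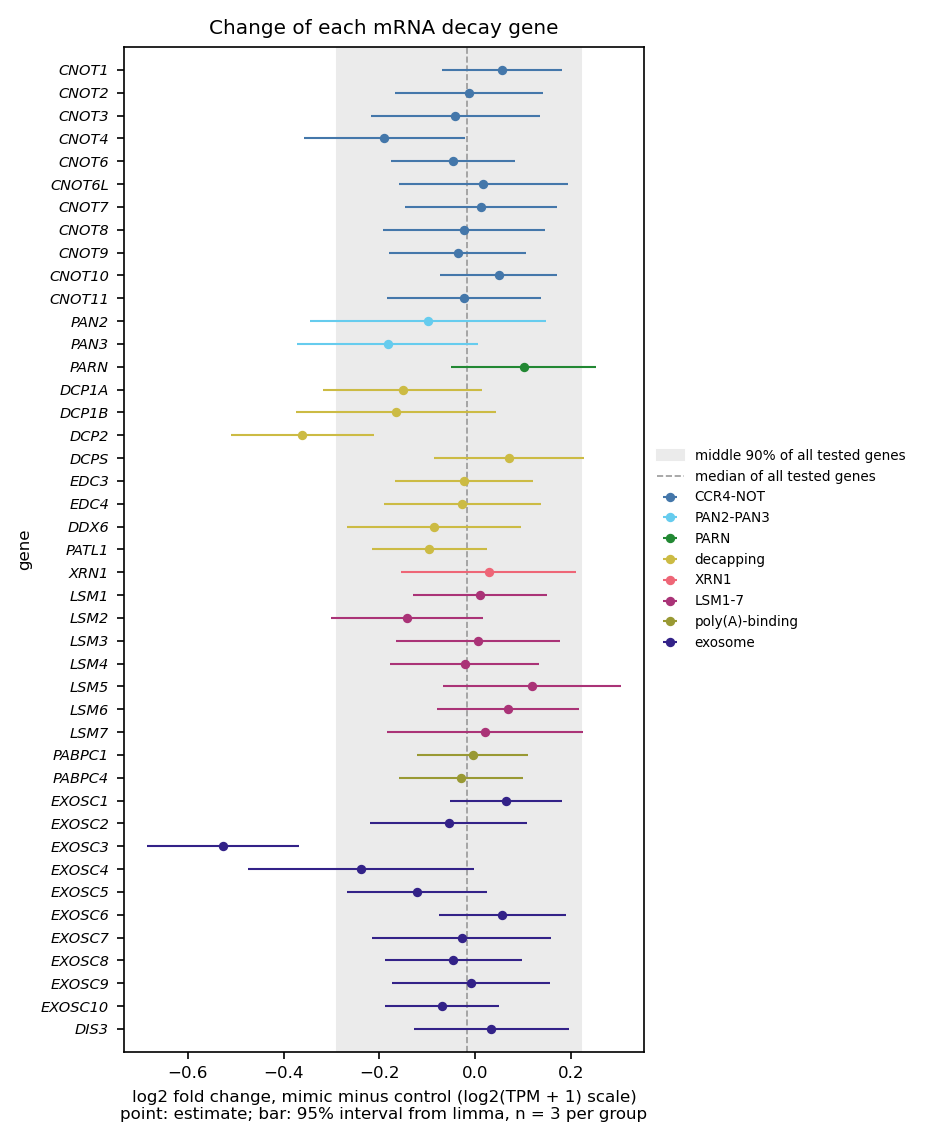
Log2 fold change (mimic minus control, log2(TPM + 1) scale) of each mRNA decay gene, coloured by complex, with 95% intervals from limma (n = 3 per group); the band holds the middle 90% of all tested genes. EXOSC3 at -0.53 and DCP2 at -0.36 are the 2 points left of the band.

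The RNA exosome has a ring of 6 subunits, a cap of 3 that binds RNA and guides it in, and the nucleases EXOSC10 and DIS3. Of its 11 genes, EXOSC3 fell, 0 rose and 10 did not pass (limma with Benjamini-Hochberg adjustment). EXOSC3 measured 29.5, 28.3 and 30.6 TPM in control libraries 1 to 3 and 20.6, 18.6 and 21.3 TPM in mimic libraries 1 to 3. The groups were well apart, since the highest mimic value, 21.3 TPM, lay under the lowest control value, 28.3 TPM. The log2 fold change was -0.53 (SE 0.07, 95% interval -0.68 to -0.37, adjusted p = 0.0207 by limma). By p-value EXOSC3 ranked 29 among the 13680 genes. The values correspond to an estimated 487 to 802 reads per library.

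The call for EXOSC3 was lost without any one of 4 libraries, although its fold change stayed between -0.57 and -0.47 in the 16 other settings tried. It passed in 9 of these, and over all 16 the limma adjusted p ran from 0.00827 to 0.132. The adjusted p was 0.0970, 0.0806 and 0.132 without control library 1, 2 and 3 and 0.0827 without mimic library 1. Testing every gene above 0 in at least 1 library gave 0.120, and a prior without a trend gave 0.0554. EXOSC3 (ENSG00000107371) lies at chr9:37766978-37801437 on the minus strand of GRCh38. It shares 150 exonic bases with AL138752.2 on the same strand and 96 with DCAF10 on the opposite strand, so some reads may be shared. In log2 terms AL138752.2 differed by -0.01 (SE 0.09) and DCAF10 by -0.02 (SE 0.07). GENCODE 29 also names 2 pseudogenes of EXOSC3, and none of them is listed among the deposited genes. How reads that fit a pseudogene were counted is not given in the sources used here.

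Neither of the other cap genes passed the test, and their difference from EXOSC3 is given as shares, without a test. EXOSC1 measured 39.2, 38.2 and 38.0 TPM in control and 40.8, 40.3 and 39.8 TPM in mimic libraries. Its groups did not overlap and the mimic values were the higher, with a log2 fold change of 0.06 (SE 0.05, limma adjusted p = 0.781). EXOSC2 measured 31.4 ± 2.71 and 30.1 ± 0.401 TPM. EXOSC3 thus made up 30.4%, 28.3% and 30.3% of the summed TPM of the 3 cap genes in control libraries and 22.5%, 20.9% and 23.5% in mimic libraries. EXOSC1 made up 38.7 ± 1.45% and 44.5 ± 0.654%, and EXOSC2 31.6 ± 2.19% and 33.3 ± 0.703%, in control and mimic libraries. The shares of EXOSC3 and EXOSC1 did not overlap between the groups and those of EXOSC2 did. These shares were not among those planned. A lower EXOSC3 value lowers its own share and raises those of the other cap genes, so the shares restate its fall and are no further result.

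**Figure D3:**
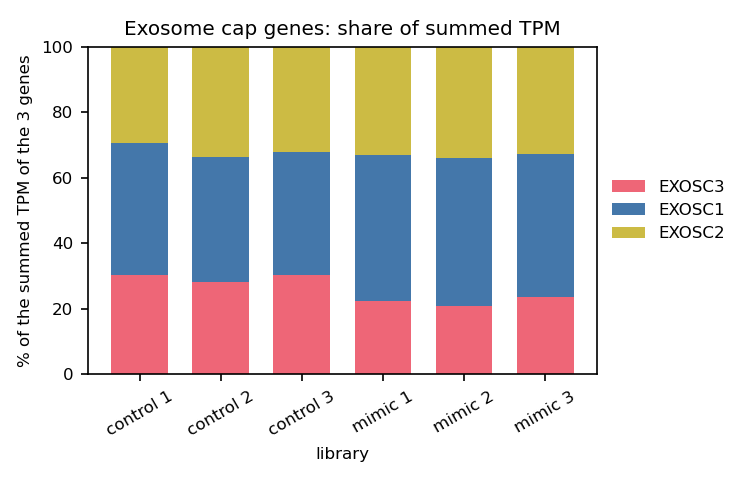
Share of the summed TPM of the 3 exosome cap genes taken by each, in percent, for every library. EXOSC3 takes 28.3% to 30.4% in control libraries and 20.9% to 23.5% in mimic libraries.

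Among the ring genes EXOSC4 had the largest difference. It measured 29.8, 30.3 and 25.4 TPM in control and 22.8, 21.7 and 27.7 TPM in mimic libraries, so mimic library 3 lay above control library 3 and the groups overlapped (log2 fold change -0.24, SE 0.10, limma adjusted p = 0.462). It rests on an estimated 261 to 347 reads per library, the lowest number among the members. EXOSC5, another ring subunit, measured 26.1, 25.9 and 27.9 TPM in control and 25.6, 23.2 and 24.5 TPM in mimic libraries. Its groups did not overlap, with mimic below (log2 fold change -0.12, SE 0.06, limma adjusted p = 0.577). The remaining ring genes overlapped between groups, with means in control and mimic cells of 35.5 and 36.9 TPM for EXOSC6, 32.2 and 31.6 TPM for EXOSC7, 73.5 and 71.2 TPM for EXOSC8, and 48.4 and 48.1 TPM for EXOSC9.

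EXOSC10, the nuclear exosome nuclease, was the most abundant exosome gene, at 85.7, 90.7 and 93.4 TPM in control and 85.8, 84.7 and 86.3 TPM in mimic libraries. DIS3, the nuclease at the base of the ring, measured 27.4, 29.03 and 31.4 TPM in control and 29.8, 31.7 and 28.5 TPM in mimic libraries, and the groups overlapped for both genes. Summed over the complex, the exosome genes gave 450.7, 465.8 and 473.8 TPM in control and 448.4, 445.9 and 433.6 TPM in mimic libraries. Without EXOSC3 the sums were 421.1, 437.5 and 443.1 TPM against 427.8, 427.2 and 412.2 TPM. The groups did not overlap in the first sum and overlapped in the second.

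DCP2 removes the cap from deadenylated mRNA, and DCP1A and DCP1B, EDC3, EDC4, the helicase DDX6 and PATL1 assist it. Of the 8 decapping genes, 0 passed the test and 7 had a fold change below 0. Over all tested genes 56.6% lay below 0. The decapping genes summed to 272.3, 290.4 and 292.8 TPM in control and 262.2, 277.0 and 263.5 TPM in mimic libraries, which overlapped. DCP2 measured 16.1, 16.2 and 16.2 TPM in control and 12.0, 13.1 and 12.0 TPM in mimic libraries. Its control libraries differed by an SD of 0.0385 TPM, and the highest mimic value, 13.1 TPM, lay well under all of them. An SD from 3 libraries is itself uncertain, and one this small is not a measure of precision. The values correspond to an estimated 904 to 1394 reads per library. The log2 fold change was -0.36 (SE 0.07, 95% interval -0.51 to -0.21), with an unadjusted p of 4.43e-04 and a limma adjusted p of 0.0645. In 16 other settings its adjusted p ran from 0.0382 to 0.262, and it passed in the 3 that tested fewer genes or used a robust prior. DCP2 (ENSG00000172795) lies at chr5:112976702-113020970 on the plus strand of GRCh38, and 0 other GENCODE 29 genes overlap its span on either strand.

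The cofactors of DCP2 had smaller differences. DCP1A measured 29.98, 32.8 and 35.9 TPM in control and 29.8, 29.7 and 28.8 TPM in mimic libraries, and control library 1 lay just above the highest mimic value, 29.8 TPM (log2 fold change -0.15, SE 0.07, limma adjusted p = 0.517). PATL1, which links the LSM ring to decapping, measured 59.2, 61.9 and 62.2 TPM in control and 56.0, 59.1 and 56.2 TPM in mimic libraries. Its groups were also apart by a narrow margin, 59.15 against 59.08 TPM for the nearest pair (log2 fold change -0.10, SE 0.05, limma adjusted p = 0.601). DCP1B, the paralog of DCP1A and the lowest decapping gene, measured 13.4, 11.4 and 12.9 TPM in control and 10.3, 12.3 and 10.7 TPM in mimic libraries. Its groups overlapped through mimic library 2. DDX6 measured 70.1, 75.4 and 78.2 TPM in control and 66.8, 78.8 and 65.6 TPM in mimic libraries, so the highest value was in a mimic library.

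EDC3, an enhancer of decapping, measured 28.2 ± 1.56 and 27.7 ± 0.818 TPM and EDC4, a large scaffold, 46.5 ± 3.75 and 45.5 ± 2.34 TPM. DCPS, which hydrolyses the cap left after 3′ to 5′ decay, was the 1 decapping gene with a fold change above 0, at 13.2 ± 0.189 and 13.9 ± 0.781 TPM (log2 fold change 0.07). XRN1, the 5′ to 3′ exonuclease that follows decapping, measured 15.6, 17.3 and 18.1 TPM in control and 16.5, 18.8 and 16.9 TPM in mimic libraries. Those groups overlapped over most of their range (log2 fold change 0.03, SE 0.08), and the sign of this value turned without control library 1 (-0.03) or mimic library 2 (-0.03). DCP2 made up 33.05 ± 1.97% of the summed TPM of DCP2 and DCP1A in control and 29.6 ± 0.896% in mimic libraries, without overlap. That share was not among those planned. It restates the DCP2 values given above and is no further result. DCP1A made up 72.3 ± 2.81% and 72.7 ± 1.79% of the DCP1 pair.

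**Figure D4:**
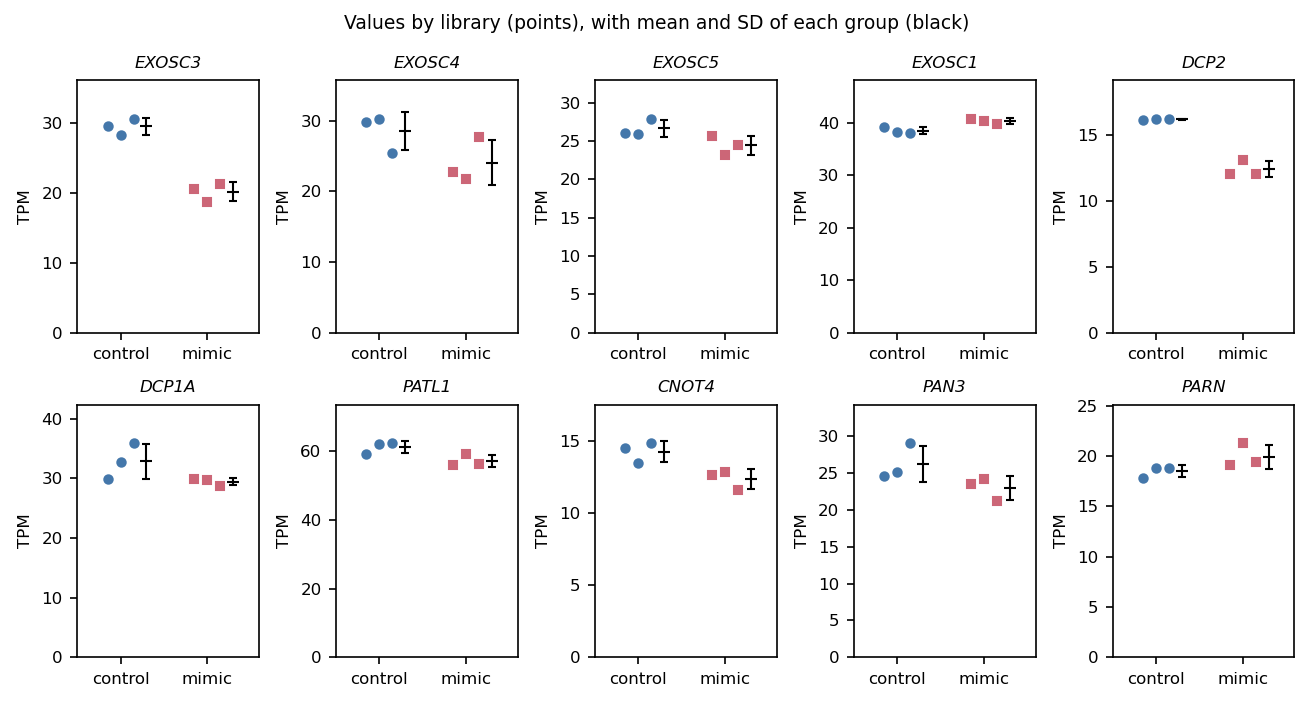
TPM by library for 10 members with a difference described in the text, with axes from 0: control (circles), mimic (squares), and the mean with SD of each group in black (n = 3). EXOSC3 and DCP2 show a clear gap between groups, and DCP1A and PATL1 a narrow one.

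CCR4-NOT is built on the scaffold CNOT1 and carries a nuclease of each of 2 families, CNOT6 or CNOT6L and CNOT7 or CNOT8. Of its 11 genes 0 passed the test, with 7 fold changes below 0 and 4 above, and a median of -0.02. CNOT4, a ubiquitin ligase that is loosely tied to the complex, had the largest difference. It measured 14.5, 13.5 and 14.9 TPM in control and 12.7, 12.9 and 11.6 TPM in mimic libraries, the lowest CCR4-NOT gene in both groups. No mimic value reached the control values (log2 fold change -0.19, SE 0.07, unadjusted p = 0.0305, limma adjusted p = 0.386).

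The nucleases of CCR4-NOT overlapped between groups in all 4 cases. CNOT8, the most abundant gene of the complex, measured 86.9, 99.6 and 97.8 TPM in control and 90.9, 100.9 and 87.8 TPM in mimic libraries. CNOT7 measured 45.9 ± 1.79 and 46.3 ± 3.61 TPM, so that CNOT8 made up 67.3 ± 1.80% and 66.8 ± 0.607% of the pair. CNOT6 measured 52.2 ± 2.28 and 50.5 ± 1.62 TPM and CNOT6L 36.3 ± 2.01 and 36.8 ± 3.40 TPM. CNOT6 made up 58.9 ± 0.332% of that pair in control and 57.9 ± 1.43% in mimic libraries. The 95% intervals of the 4 log2 fold changes lay between -0.19 and 0.19, so larger differences in these genes fall outside the intervals.

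CNOT1 measured 61.4 ± 2.32 and 63.8 ± 2.09 TPM in control and mimic cells. CNOT2 and CNOT3, which form the NOT module with it, measured 25.6 ± 1.08 and 25.4 ± 1.58 TPM and 33.0 ± 0.617 and 32.2 ± 3.33 TPM. CNOT9, which binds the GW182 proteins of the silencing complex, measured 59.5 ± 3.12 and 57.9 ± 2.89 TPM. CNOT10 and CNOT11 form a module at the other end of CNOT1. CNOT10 measured 26.6, 26.9 and 26.6 TPM in control and 27.3, 27.8 and 27.9 TPM in mimic libraries, a small difference without overlap (log2 fold change 0.05, SE 0.05, limma adjusted p = 0.877). CNOT11 measured 93.6 ± 8.88 and 91.8 ± 1.39 TPM. The complex summed to 514.7, 562.1 and 552.8 TPM in control and 528.2, 557.2 and 528.6 TPM in mimic libraries, which overlapped.

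Both genes of PAN2-PAN3, the deadenylase that trims long tails, had fold changes below 0 and neither passed. PAN3, the adaptor that brings PAN2 to mRNA, measured 24.5, 25.0 and 28.98 TPM in control and 23.5, 24.2 and 21.1 TPM in mimic libraries, without overlap (log2 fold change -0.18, SE 0.08, limma adjusted p = 0.487). PAN2 measured 6.78, 7.82 and 9.04 TPM in control and 7.22, 7.74 and 6.80 TPM in mimic libraries, with overlap (log2 fold change -0.10, SE 0.11). PARN, a separate deadenylase, went the other way in sign. It measured 17.8, 18.8 and 18.8 TPM in control and 19.1, 21.2 and 19.4 TPM in mimic libraries, with every mimic library above every control library (log2 fold change 0.10, SE 0.07, limma adjusted p = 0.705).

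The LSM1-7 ring binds the short 3′ ends of deadenylated mRNA, and LSM2 to LSM7 also belong to the nuclear ring of the U6 snRNA, so their transcripts serve both. None of its 7 genes passed the limma test, at an adjusted p of 0.523 or more, and none passed at an unadjusted p under 0.05. All 7 overlapped between groups. LSM2 had the largest difference, at 123.6, 111.0 and 114.8 TPM in control and 107.2, 96.9 and 112.3 TPM in mimic libraries (a log2 fold change of -0.14, SE 0.07). LSM5, which carries the 8mer match, was at 40.1, 36.2 and 36.2 TPM in control and 42.7, 43.5 and 36.3 TPM in mimic libraries (a log2 fold change of 0.12, SE 0.08).

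LSM7 was the most abundant ring gene, at 183.5, 144.3 and 165.7 TPM in control and 179.5, 159.2 and 160.1 TPM in mimic libraries. LSM6 was the least abundant, at 24.0, 24.6 and 22.9 TPM in control and 24.4, 26.7 and 24.1 TPM in mimic libraries. The groups of both genes overlapped. LSM1, the subunit particular to the cytoplasmic ring, measured 90.9 ± 0.939 and 91.7 ± 6.55 TPM. LSM3 measured 78.6 ± 4.66 and 79.1 ± 6.74 TPM and LSM4 109.6 ± 5.97 and 108.0 ± 7.75 TPM. The poly(A)-binding proteins also overlapped between groups. PABPC1 measured 1478, 1532 and 1569 TPM in control and 1509, 1567 and 1485 TPM in mimic libraries (a log2 fold change of -0.01, SE 0.05). PABPC4 measured 150.1, 164.3 and 163.3 TPM in control and 154.2, 162.4 and 151.0 TPM in mimic libraries (a log2 fold change of -0.03, SE 0.06), and PABPC1 made up 90.6 ± 0.233% and 90.7 ± 0.0827% of the pair. GENCODE 29 names 13 pseudogenes of PABPC1, and none of them is listed among the deposited genes. How reads that fit them were counted is not known, so the value of PABPC1 is uncertain to that extent.

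Counted over the members, 10 had groups that did not overlap, 7 with mimic below (CNOT4, PAN3, DCP1A, DCP2, PATL1, EXOSC3 and EXOSC5) and 3 with mimic above (CNOT10, PARN and EXOSC1). The 10 are 23.3% of members against 15.7% of all tested genes, made up of 16.3% against 10.5% with mimic below and 6.98% against 5.16% with mimic above. Members varied less between libraries of a group than other genes, with a median coefficient of variation of 5.39% against 7.07%, at a median level that was also higher. The median deviation of members from their 6-library mean, on the log2(TPM + 1) scale, was -0.03, 0.02 and 0.05 in control libraries 1 to 3 and -0.02, 0.03 and -0.05 in mimic libraries 1 to 3. Control library 1 and mimic library 3 were thus the lowest of their groups, and the groups overlapped.

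Other genes of mRNA decay were read from 5 lists beside the members. Of the proteins that bring CCR4-NOT to mRNA, 1 rose, 3 fell and 16 of 20 tested did not pass (limma with Benjamini-Hochberg adjustment), where 0.132% of all tested genes rose and 0.3% fell. The list was drawn up with earlier results known, BTG2 is named in the series title, and nothing particular to the list is read from this count. ZFP36L1, which recruits deadenylases to AU-rich mRNAs, measured 99.5, 106.5 and 108.6 TPM in control and 78.0, 83.0 and 83.6 TPM in mimic libraries. It fell with a log2 fold change of -0.36 (SE 0.06, limma adjusted p = 0.0440) and passed in 7 of 16 other settings, in none of which a library was left out, while its relative ZFP36 rose (1.04, SE 0.08, adjusted p = 0.00507). The antiproliferative genes TOB2 (-0.83, SE 0.08, adjusted p = 0.00618) and BTG2 (-0.63, SE 0.08, adjusted p = 0.0143), which bind CNOT7 and CNOT8, fell. BTG2 passed in 9 of 16 other settings, and its adjusted p was 0.0823, 0.0699 and 0.0785 without control library 1, 2 and 3 and 0.0582 without mimic library 1. That of ZFP36L1 was 0.0569 to 0.199 with any 1 library left out. In this list 2 genes had an unadjusted p under 0.05 and were higher and 7 were lower, against 3.05% and 7.64% of all tested genes, and its median log2 fold change was -0.06.

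No gene passed the limma adjusted threshold in the other 4 lists, and their counts at an unadjusted p under 0.05 stand against the same background of 3.05% higher and 7.64% lower. Of 17 exosome cofactors and related nucleases, 1 had an unadjusted p under 0.05 and was lower. It was ZCCHC8, the scaffold of a nuclear exosome targeting complex, at 12.5, 14.4 and 13.3 TPM in control and 10.2, 10.7 and 9.94 TPM in mimic libraries (a log2 fold change of -0.35, SE 0.08, limma adjusted p = 0.108). Its groups did not overlap. TENT4A and TENT4B, poly(A) polymerases whose short tails can mark RNA for the exosome, were listed with the poly(A) factors.

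TENT4A measured 17.7, 18.9 and 19.1 TPM in control and 15.1, 14.8 and 13.5 TPM in mimic libraries (a log2 fold change of -0.34, SE 0.07, limma adjusted p = 0.0886). TENT4B measured 13.5 ± 1.09 and 11.02 ± 0.301 TPM (log2 fold change -0.27, SE 0.08, limma adjusted p = 0.225). For both genes the groups were apart, with mimic below. In the same list CPEB4, which binds elements that control poly(A) length, was higher in every mimic library, at 5.52 ± 0.501 and 8.15 ± 0.671 TPM (log2 fold change 0.49, SE 0.10, limma adjusted p = 0.0847). Over the 16 tested genes of that list, 1 had an unadjusted p under 0.05 and was higher, and 2 were lower.

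Of 10 tested decapping partners, 2 were higher and 0 lower at that p. NUDT3, a hydrolase with decapping activity, measured 49.2 ± 3.30 and 56.0 ± 1.77 TPM, and PNRC1, a coactivator that binds decapping factors, 39.5 ± 1.74 and 46.4 ± 4.13 TPM. The limma adjusted p was 0.326 and 0.307. Of 15 genes of nonsense-mediated decay, which removes mRNAs with premature stop codons, 0 were higher and 3 lower at that p, where 7.64% of all tested genes were lower. These were the helicase UPF1 (log2 fold change -0.16, SE 0.07) and its partners SMG5 (-0.16, SE 0.07) and SMG8 (-0.16, SE 0.07), with limma adjusted p-values of 0.421, 0.445 and 0.444.

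**Figure D5:**
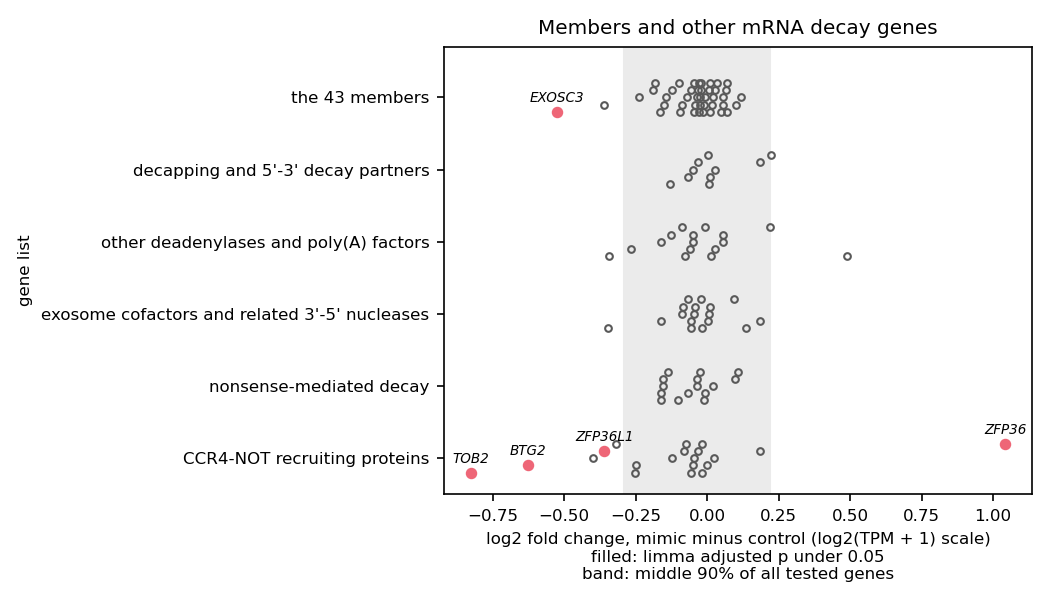
Log2 fold change (mimic minus control, log2(TPM + 1) scale) of the 43 members and of 5 lists of other mRNA decay genes, 1 point per tested gene, with filled points past the limma threshold; the band holds the middle 90% of all tested genes. EXOSC3 is the 1 filled member, and ZFP36, TOB2, BTG2 and ZFP36L1 are filled among the recruiting proteins.

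By seed match, the log2 fold changes were 0.12 for LSM5 with the 8mer and -0.09 and 0.03 for DDX6 and XRN1 with a 7mer-m8. The 5 members with a 7mer-A1 had a median of -0.01, the 13 with a 6mer -0.04 and the 22 without a match -0.03. Of those 5, PAN3 was at -0.18, with every mimic library below every control library. The others, CNOT2, CNOT7, PABPC1 and DIS3, lay between -0.01 and 0.03. Over all genes searched the medians were -0.01, -0.02, -0.01, -0.02 and -0.02 from the 8mer to no match. EXOSC3, the member that fell, had no match, and DCP2, the next, had 5 copies of the 6mer in a 3′ UTR of 7486 nt. The other members with 5 or more matches were DIS3 (6 in 7626 nt), CNOT6L (5 in 7044 nt) and XRN1 (5 in 4904 nt). Their log2 fold changes were 0.03, 0.02 and 0.03. Whether the number of matches had a part in any difference was not tested.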

How the data were processed

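RNA-seq of 6 HUVEC libraries was used, 3 mimic and 3 control, grouped by sample title. The authors deposited TPM for 45372 Ensembl genes per library, per the file headers, brought to an equal sum per library. The submitters' processing notes name the builds hg38 and GRCh38.p13. Neither the aligner and counter nor the annotation and use of strand is given in the sources used here. For each RNA sample 4 technical replicates were pooled, per the labels' design text. Ensembl IDs were matched to symbols in a gene name table, and positions, lengths and 3′ UTRs (at least 30 nt) taken from GENCODE 29. RefSeq's table for GRCh38.p14 held the microRNA.

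TPM keeps no depth. TPM times exon length of genes with 1 read gave the reads per library, with 76.1% to 76.9% of low genes whole within 0.02 reads, so read numbers are estimates and may include PCR copies. The 13680 genes that reached 1 TPM in 3 or more of the 6 libraries were fitted with limma 3.58.1 in R 4.3.3 on log2(TPM + 1), with group as the only term and a trended prior. Benjamini-Hochberg adjustment covered all of them. Fold changes on this scale understate those of low genes. The fit was tested on simulated data.

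The members and lists were chosen with earlier results of these data known, and no p is adjusted over a list alone. Library values are given for members at an unadjusted p under 0.05, with groups that do not overlap, or highest, lowest or most different in a complex, and some others were added after their values were seen. Of other decay genes, those past the threshold were named, or else up to 3 a list with the lowest unadjusted p under 0.05. Alternatives changed the pseudocount, filter, scaling, prior, genes fitted, replicate term or libraries. Python 3.11.15, numpy 2.4.6, pandas 2.3.3 and matplotlib 3.10.9 were used.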

Additional observations from a re-analysis of the deposited data

How the results depend on the processing

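The count of members that fell, 1, was 2 with protein-coding genes only, a 5 TPM filter or a robust prior (DCP2 added), and 0 with no filter or an untrended prior. It was 0 to 1 when 1 library was left out. The count of members that rose was 0 in each of the 16 other settings. Same-numbered libraries did not deviate together (r = 0.031, -0.087 and -0.112 for numbers 1 to 3). These correlations over all tested genes also carry the noise of single genes. They cannot settle whether same-numbered libraries shared a culture or batch, and the labels do not say. With the replicate block the count was 0 and the limma adjusted p was 0.0679 for EXOSC3, 0.0569 for BTG2 and 0.122 for ZFP36L1, which ended these calls, while those of TOB2 and ZFP36 held. The median log2 fold change of members ran from -0.0638 to -0.0025, and 26 of 43 members kept their sign in all settings. The log2 fold change of XRN1, 0.0279, ran from -0.0296 (without control library 1) to 0.0715 (without control library 3) with 1 library left out, and was -0.0267 without mimic library 2. Over all genes, 18 rises and 41 falls became 6 and 5 with no filter and 54 and 122 with protein-coding genes only. The median SE of the members was 0.07 in log2, which limits how small a difference could be detected.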
